A study of Mus musculus with 6 samples.

Results

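The Zfp genes of the mouse encode proteins of the C2H2 zinc finger class, and those expressed in the reperfused heart were described across dexmedetomidine and vehicle hearts. Members were chosen by symbol, Zfp followed by digits only with Zfp36 left out, and by a measured value, a mean of at least 3 counts per M gene counts (CPM) over all 6 libraries before any scaling. The rule gave 170 members of 354 Zfp genes in a table of 37620 genes. That mean pools both groups, so levels are given as a description with no test. The threshold was reached through the dexmedetomidine libraries alone by 14 members, whose vehicle mean was under 3 CPM, and through the vehicle libraries alone by 3. The rule placed the group means of such members on opposite sides of 3 CPM, by little in some, as in Zfp3 (raw means of 3.08 CPM in dexmedetomidine and 2.997 CPM in vehicle hearts). Results over the members are therefore also given for the 153 that reached 3 CPM in each group. Just inside the threshold stood Zfp446, Zfp111 and Zfp3 with a mean raw level of 3.13, 3.11 and 3.04 CPM, and just outside Zfp950, Zfp961 and Zfp764 with 2.99, 2.97 and 2.96 CPM.

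All animals were wild-type C57/BL6J mice whose hearts went through 30 min of ischaemia and 120 min of reperfusion, and the apex was taken for sequencing of polyadenylated RNA. The dexmedetomidine group (3 libraries) received 10 µg/kg of dexmedetomidine, an alpha2-adrenergic agonist used as a sedative, 20 min ahead of surgery, and 30 min ahead of the drug the vehicle of yohimbine, an alpha2-adrenergic blocker. In the vehicle group (3 libraries) the vehicles of both drugs were given before surgery, and the labels do not state the times or the age of the animals. No group without ischaemia was used here, so levels apply to injured hearts. The labels call each group 3 samples without naming the animals, so p-values rest on differences among these libraries, which may in part be technical.

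Zinc finger proteins of this class bind DNA, or RNA, through repeated loops in which 2 cysteines and 2 histidines hold a zinc ion. Many carry a KRAB domain at their start, which recruits the co-repressor TRIM28 and with it the histone methyltransferase SETDB1 and heterochromatin proteins. KRAB zinc finger genes are numerous, evolve fast, lie in clusters, and are known for silencing endogenous retroviruses and other transposable elements. Members without the domain are a mixed group of transcription factors, RNA-binding proteins and ubiquitin ligases.

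Gene counts summed to 42.7 to 48.6 M per library in the dexmedetomidine group and 50.3 to 56.6 M in the vehicle group. Mitochondrially encoded genes took 27.1% to 38.2% of these counts in dexmedetomidine hearts and 22.01% to 25.2% in vehicle hearts, and reads aligned at several places 31.2% to 39.5% and 28.1% to 31.5% of all reads. Cardiomyocyte markers defined the tissue, with a summed level of 44087 to 47878 CPM in dexmedetomidine hearts and 48874 to 56595 CPM in vehicle hearts for 10 markers, of which 3 had higher and 7 lower values in dexmedetomidine hearts. Sums for 7 fibroblast markers (1107 to 1329 against 903 to 1014 CPM, 5 higher and 2 lower) and 7 smooth muscle and pericyte markers (1625 to 1911 against 1261 to 1424 CPM, but 3 higher and 4 lower) did not overlap between the groups either, while those of the other 9 lists did. Their part in the results below was not tested, and in bulk tissue fewer cells of a type and less RNA per cell cannot be told apart. Vehicle replicate 2 held the lowest of 6 values for 107 of the 170 members, so results are also given without it. The same count was not made over all genes tested, so it does not show whether this is particular to the members.

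Translated coding sequences of the GENCODE M21 annotation (build GRCm38) sorted the members. A KRAB pattern of 16 conserved positions, at least 13 of them matched, was found in 61 members, called KRAB members here, and was missing in 109, the other members. Of these, 6 matched 9 to 11 positions, so the other members may include some with a divergent KRAB domain. KRAB members held a median of 12 zinc finger patterns (range 3 to 23) and other members 8 (range 0 to 37). Zfp142 held the most, 37, and Zfp703, Zfp330 and Zfp839 held none by this pattern. A SCAN pattern, a dimerisation domain, was found in 8 members. The classes also differed in base composition. The median GC content of the longest transcript was 42.5% in KRAB members, 50.1% in other members and 49.8% in all genes tested.

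The coding stretches of single fingers show differences in base composition in the letters, since the amino acid frame is shared while the bases between vary. One finger with its linker is printed for 3 members in each direction, taken in order of p among those with a linked finger in 1 exon. The choice did not cover every chromosome, so the 3 need not have the smallest p of all such members. Zfp516, a lower member with a smaller p than the 3 lower members printed, was not considered. Sequences are 81 bases of the coding strand from GENCODE M21 transcripts (GRCm38), and capitals mark the codons of the zinc-binding cysteines and histidines. The first 3 belong to members with higher values in dexmedetomidine hearts, all KRAB members, and the last 3 to members with lower values there, all other members. Fold change fell with finger GC content (Spearman's rank correlation -0.77 over 100 members with such fingers). A difference in GC content between the printed sets thus follows in part from the choice by direction.
Zfp948, chr17:21587193-21587273 (+): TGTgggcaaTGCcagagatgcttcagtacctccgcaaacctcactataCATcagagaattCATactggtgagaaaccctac
Zfp945, chr17:22851538-22851618 (-): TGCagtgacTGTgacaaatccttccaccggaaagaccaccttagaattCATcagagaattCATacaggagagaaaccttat
Zfp758, chr17:22375417-22375497 (+): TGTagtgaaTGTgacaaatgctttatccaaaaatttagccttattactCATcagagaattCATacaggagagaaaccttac
Zfp771, chr7:127254024-127254104 (+): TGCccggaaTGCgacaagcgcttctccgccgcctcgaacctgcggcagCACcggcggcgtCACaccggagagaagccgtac
Zfp651, chr9:121767512-121767592 (+): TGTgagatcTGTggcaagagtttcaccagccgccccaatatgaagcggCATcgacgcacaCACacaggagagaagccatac
Zfp513, chr5:31200416-31200496 (-): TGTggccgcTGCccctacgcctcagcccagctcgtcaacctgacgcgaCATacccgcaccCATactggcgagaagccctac
The 3 stretches from members with higher values had a GC content of 46.9%, 42.0% and 33.3%, and the 3 from members with lower values 69.1%, 54.3% and 65.4%. The fingers of Zfp945 and Zfp758 were identical at 64 of 81 bases, the most of any printed pair. That of Zfp513 shared 41 bases, the fewest, with Zfp758 and also with Zfp771, another lower member. Linked fingers of this kind were found in 100 members (521 fingers), with a median GC content per gene of 43.8% in 54 KRAB members and 52.2% in 46 other members. Zfp513 was printed through this selection and lies outside the genes named by rule.

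Levels spanned a wide range. The mean raw level of members ran between 3.04 CPM (Zfp3) and 551 CPM (Zfp106), with a median of 9.57 CPM, and none of the 61 KRAB members exceeded 30.7 CPM. Per kilobase of the deposited gene length, the median level was 1.58 CPM per kb in KRAB members and 2.85 CPM per kb in other members. Zfp106, an RNA-binding protein needed for muscle and motor neuron upkeep in mice, stood first with 49.8 CPM per kb, ahead of Zfp706 (23.9), Zfp651 (17.1), Zfp771 (15.3), Zfp358 (14.5) and Zfp91 (12.6 CPM per kb). From here on levels are CPM with library sizes scaled by the TMM method, and fold changes are log2, dexmedetomidine minus vehicle.

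The summed level of all members was 3089, 3253 and 3299 CPM in the dexmedetomidine libraries, and 2812, 2501 and 2971 CPM in the vehicle libraries. The groups did not overlap, yet on raw library sizes, where the sums were 3265, 2969 and 2968 CPM against 2909, 2469 and 3345 CPM, they did. KRAB members summed to 554, 585 and 700 CPM in dexmedetomidine hearts, and to 418, 322 and 480 CPM in vehicle hearts. Other members summed to 2535, 2668 and 2599 CPM in dexmedetomidine hearts, and to 2394, 2179 and 2491 CPM in vehicle hearts. The mean KRAB sum was 1.51 times as large in dexmedetomidine as in vehicle hearts, and that of the other members 1.10 times. On raw library sizes these ratios were 1.36 and 1.00, and the KRAB sums overlapped (534 to 630 CPM in dexmedetomidine hearts, and 318 to 540 CPM in vehicle hearts).

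No member and no gene at all passed an adjusted p of 0.05 in edgeR's quasi-likelihood test with Benjamini-Hochberg adjustment over 14738 genes (0% called, lowest adjusted p 0.101). All 170 members had passed the filter on low counts. At an unadjusted edgeR p under 0.05 there were 49 members with higher values in dexmedetomidine hearts, where 12.5% of all genes were called, and 11 with lower values, where 9.03% were. DESeq2 called 29 members higher and 2 lower at an adjusted p of 0.05 (6.53% and 2.9% of genes called), and limma-voom with quality weights 47 and 4 (8.98% and 5.31%, and 17 lower members at an unadjusted p, against 14.6% of genes). Of these calls 30 were shared, which is 96.8% of the DESeq2 calls and 58.8% of the limma-voom calls. Vehicle replicate 3 decided the count in edgeR: without it, 37 members were called higher and 2 lower (6.13% and 2.19% of genes). Without vehicle replicate 2 none was called, and at an unadjusted p under 0.05 there were 48 higher and 8 lower members (9.61% and 5.14% of genes). Calls were also made without the filter (10 members, 1.88% of genes) and with a replicate block (29 members, 4.32% of genes).

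The median log2 fold change was 0.19 over the members, with 114 above 0 and 56 below, and 0.003 over all genes tested. The 2 classes stood apart: KRAB members had a median of 0.62 (53 above 0, 8 below) and other members of 0.04 (61 above, 48 below). At an unadjusted edgeR p under 0.05 there were 27 KRAB members with higher and 1 with lower values, or 44.3% and 1.64% of them, and 22 and 10 other members, or 20.2% and 9.17%. DESeq2 called 18 KRAB members, and limma-voom 28, each of them higher in dexmedetomidine hearts. Groups did not overlap for 57 members with higher and 13 with lower values, where 15.6% and 12% of all genes had such groups, and 29 and 1 of these were KRAB members. On raw CPM such groups were found for 37 and 15 members, against 8.16% and 18% of all genes. The choice of members bears on this difference, since 12 of the 61 KRAB members reached the threshold through the dexmedetomidine libraries alone, and none through the vehicle libraries alone. The 49 that reached it in each group had a median of 0.45 (41 above 0, 8 below), with 17 higher and 1 lower at an unadjusted edgeR p under 0.05 and 9 called by DESeq2. The 104 other members that did so had a median of 0.04. The 12 KRAB members left out all lay above 0, so this restriction itself favours a lower KRAB median. On raw library sizes the median over all genes lay at -0.13, and relative to it KRAB members stood at 0.60 and other members at 0.04, whose own median of -0.09 then lay below 0. The difference between the classes was not tested, since genes of the same libraries are not independent samples.

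**Figure D1:**
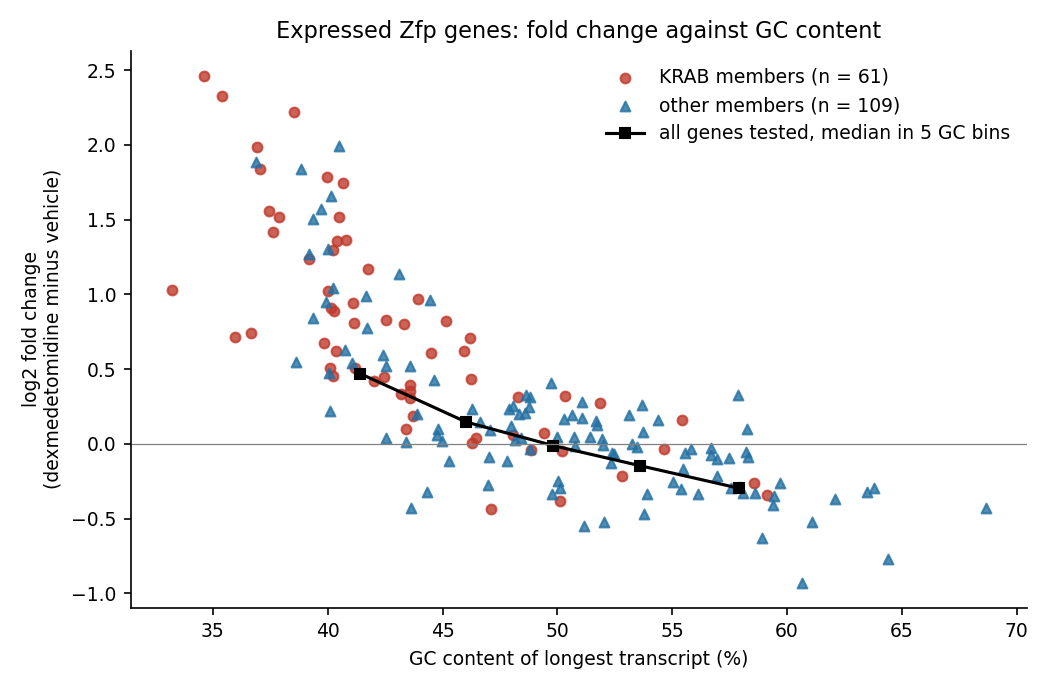
Each point is 1 of the 170 members, with the GC content of its longest transcript (%) on the x axis and its log2 fold change, dexmedetomidine minus vehicle, on the y axis; circles are KRAB members, triangles other members, and squares joined by a line the median of all genes tested in 5 GC bins. Members with a low GC content lie above 0 in both classes, up to 2.46 (Zfp979), apart from Zfp622 at -0.43, and those with a high GC content lie around or below 0, down to -0.93 (Zfp703).

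Fold changes of the members varied with GC content. Across the 170 members, which share the same 6 libraries, Spearman's rank correlation was -0.84, and it was -0.84 within KRAB members (n = 61), -0.75 within other members (n = 109) and -0.63 over 14329 genes with a known GC content. In the lowest of 5 equal GC bins of all genes (up to 44.0% GC) all 40 KRAB members lay above 0 with a median of 0.93, as did 25 of 26 other members with a median of 0.81, against a median of 0.47 over all genes. In the highest bin (above 55.5%) 2 KRAB members had a median of -0.30 and 27 other members of -0.30, against -0.30 over all genes. With each library's trend with GC content and length removed, KRAB members had a median of 0.29 (40 above 0, 21 below), other members of 0.03 and all genes of -0.03. Over the 49 KRAB members that reached 3 CPM in each group it was 0.029 (29 above 0, 20 below), next to 0.033 over the 104 other members that did so. The rank correlation over the members was then -0.31. At an unadjusted edgeR p under 0.05 the offset left 26 higher and 12 lower members (4.94% and 7.8% of genes), or 18 and 6 when vehicle replicate 2 was also left out (3.69% and 3.73%), and with the offset and a replicate block 13 members passed the adjusted threshold (1.04%). After the correction, groups did not overlap for 29 members with higher and 11 with lower values (7.72% and 9.69% of genes).

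**Figure D2:**
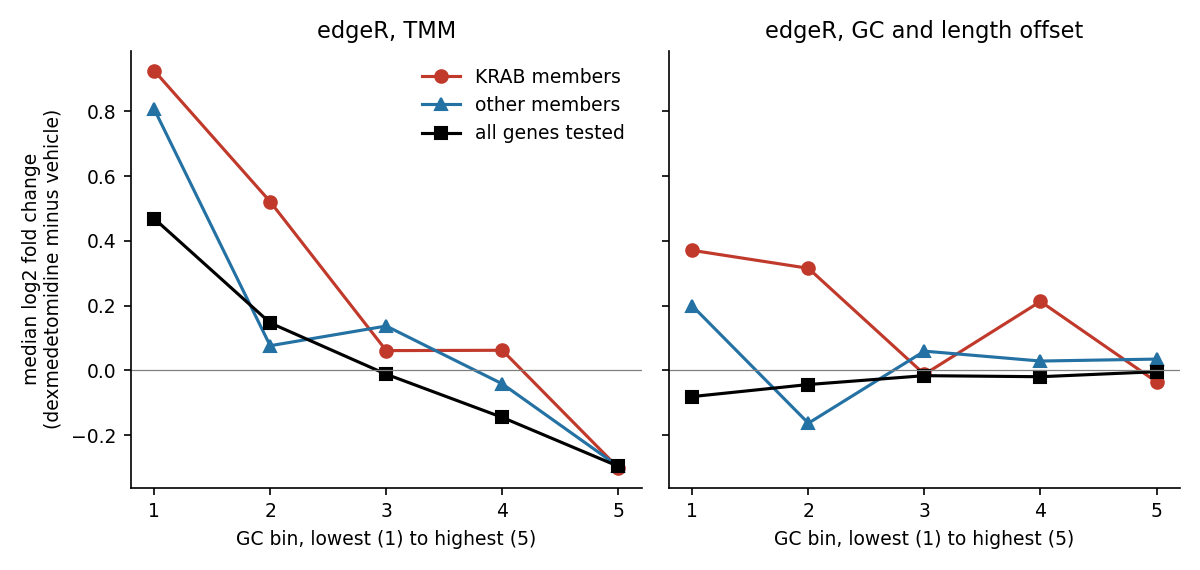
Median log2 fold change (y axis, dexmedetomidine minus vehicle) in 5 bins of GC content from lowest to highest (x axis), for KRAB members (circles), other members (triangles) and all genes tested (squares), in edgeR with TMM scaling (left) and with an offset for GC content and length (right). On the left the medians are highest in bin 1, at 0.93 in KRAB members, and lowest in bin 5. On the right KRAB members are at 0.37 in bin 1, 0.32 in bin 2 and 0.21 in bin 4. Other members are at 0.20 in bin 1 and -0.16 in bin 2, where all genes are at -0.08 and -0.04. Bins 2, 4 and 5 hold only 8, 4 and 2 KRAB members. KRAB medians cover all 61 members, among them the 12 that reached 3 CPM through dexmedetomidine libraries alone.

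Vehicle replicate 2 carried part of the difference. It held the lowest of 6 values for 49 of 61 KRAB members and 58 of 109 other members, and dexmedetomidine replicate 3 the highest for 38 of 61 and 26 of 109. These counts were not made over all genes tested. The median deviation of KRAB members from their mean over all libraries was 0.21, 0.34 and 0.46 (log2) in the dexmedetomidine libraries, against -0.19, -0.82 and 0.03 in the vehicle libraries. After the GC and length correction it was 0.04, 0.13 and 0.18 against -0.0072, -0.37 and 0.087, so that vehicle replicate 3 stood within the dexmedetomidine range. Without vehicle replicate 2 the median log2 fold change was 0.43 in KRAB members and -0.0012 in other members. With the correction and without that library it was 0.059 and -0.018, against -0.012 over all genes. Over the 49 KRAB and 104 other members that reached 3 CPM in each group it was then 0.00041 and -0.017.

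**Figure D3:**
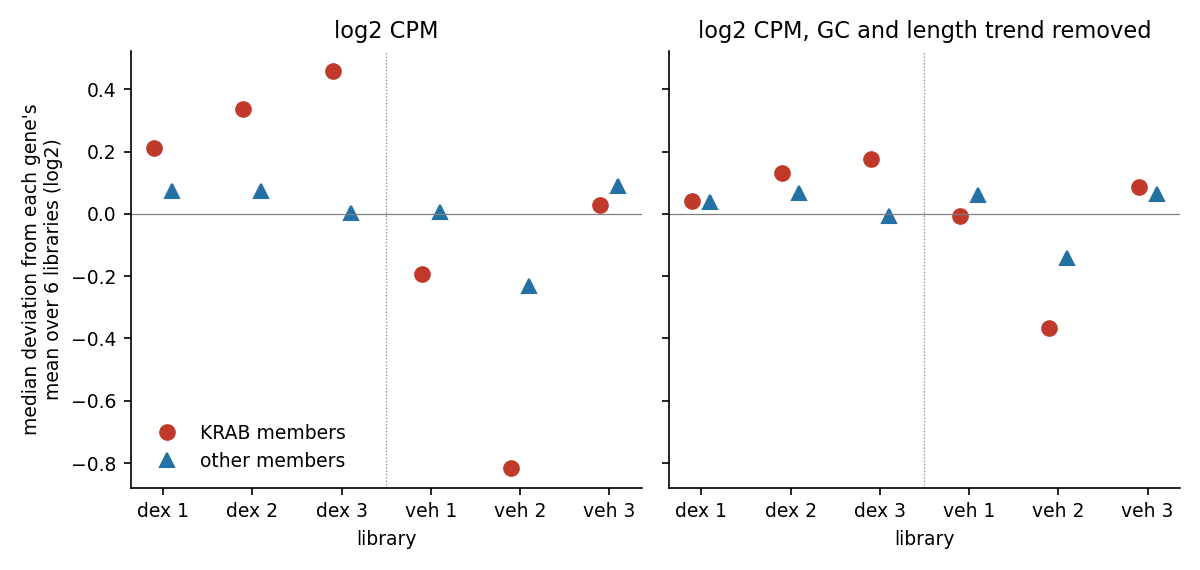
Median over KRAB members (circles) and other members (triangles) of the log2 deviation of each gene from its mean over all 6 libraries (y axis), by library (x axis, dexmedetomidine 1 to 3, then vehicle 1 to 3), before (left) and after (right) removal of each library's trend with GC content and length. On the left the KRAB medians lie between 0.21 and 0.46 in dexmedetomidine and between -0.82 and 0.03 in vehicle libraries; on the right vehicle replicate 2 alone lies far below 0, at -0.37.

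The 8 members with the smallest p among those with higher values were 4 KRAB members (Zfp948, Zfp979, Zfp945, Zfp758) and 4 others (Zfp281, Zfp654, Zfp638, Zfp207), with a GC content of 34.6% to 43.1%. Groups did not overlap for any of them, and vehicle replicate 2 was the lowest library for all 8. Zfp948 (ENSMUSG00000067931) had 11.8, 8.06 and 16.9 CPM in dexmedetomidine hearts, and 4.32, 2.34 and 4.25 CPM in vehicle hearts. Its log2 fold change was 1.75 (SE 0.32, edgeR adjusted p = 0.101), 1.51 without vehicle replicate 2 and 1.17 after the GC and length correction. Zfp979 (ENSMUSG00000066000) had 7.06, 4.08 and 8.94 CPM against 1.14, 0.40 and 2.08 CPM in vehicle hearts, with a log2 fold change of 2.46 (SE 0.54), the largest of all members, or 1.42 after the correction. Zfp758 (ENSMUSG00000044501) had 6.98, 3.28 and 8.84 CPM against 0.96, 0.56 and 2.27 CPM in vehicle hearts, and a log2 fold change of 2.33 (SE 0.54). Zfp979 and Zfp758 were among the members that reached the threshold through dexmedetomidine libraries alone, so at their vehicle level a higher dexmedetomidine level was a condition of their choice. In all 3 genes dexmedetomidine replicate 2 was the lowest and replicate 3 the highest of its group. Zfp945 differed from them: its 14.9, 13.3 and 17.1 CPM in dexmedetomidine hearts lay close together above 9.97, 7.68 and 10.0 CPM in vehicle hearts (log2 fold change 0.71, SE 0.17), yet with the correction its value was -0.40 and the groups overlapped.

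Among the members without a KRAB pattern, Zfp281 (ENSMUSG00000041483), a GC-box-binding regulator known from pluripotent cells, had 30.0, 22.9 and 33.5 CPM in dexmedetomidine hearts, and 13.4, 9.15 and 16.8 CPM in vehicle hearts. Its log2 fold change was 1.13 (SE 0.23, edgeR adjusted p = 0.101), and 0.73 after the correction. Zfp638 (ENSMUSG00000030016), known for silencing unintegrated retroviral DNA in human cells, had 38.4, 30.1 and 46.8 CPM in dexmedetomidine hearts, and 12.3, 6.13 and 18 CPM in vehicle hearts (log2 fold change 1.66, SE 0.35). Its lowest dexmedetomidine library stood well above its highest vehicle library. Zfp654 had 12.5, 14.6 and 19.4 CPM against 4.78, 1.75 and 6.0 CPM in vehicle hearts, with a log2 fold change of 1.89 (SE 0.40). Zfp207, a spindle checkpoint and splicing protein also called BuGZ, had 63.6, 99.0 and 70.0 CPM in dexmedetomidine hearts, and 53.5, 40.3 and 42.2 CPM in vehicle hearts. Dexmedetomidine replicate 2 was the highest of its libraries, and with the correction its log2 fold change of 0.77 (SE 0.18) was 0.27 and the groups overlapped.

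The calls of DESeq2 reach further into the KRAB class than these members, and the following were named from them after their values were seen. Zfp51 had 5.04, 3.11 and 8.14 CPM in dexmedetomidine hearts, and 0.79, 0.42 and 2.27 CPM in vehicle hearts, with a log2 fold change of 2.22 (SE 0.61) in edgeR and 1.52 after the correction. Zfp943 had 13.7, 10.2 and 20.3 CPM in dexmedetomidine hearts, and 3.52, 1.79 and 7.04 CPM in vehicle hearts (log2 fold change 1.84, SE 0.46). Zfp386 had 10.4, 10.1 and 14.7 CPM in dexmedetomidine hearts, and 3.86, 1.99 and 6.40 CPM in vehicle hearts (log2 fold change 1.52, SE 0.38). In each of the 3 genes the groups stood apart before and after the correction, with dexmedetomidine replicate 3 highest and vehicle replicate 2 lowest. Zfp81, Zfp120, Zfp971, Zfp933, Zfp788, Zfp606, Zfp931, Zfp74, Zfp617, Zfp26 and Zfp715 had log2 fold changes between 0.81 (Zfp715) and 1.56 (Zfp81). Of these, groups overlapped for Zfp788, and after the correction also for Zfp81, Zfp971, Zfp931, Zfp617, Zfp26 and Zfp715, with Zfp26 at 0.12 and Zfp931 at -0.17. Zfp51, Zfp81, Zfp120, Zfp933, Zfp788, Zfp931 and Zfp74 reached the threshold through dexmedetomidine libraries alone. The 8 KRAB members below 0 were Zfp777, Zfp954, Zfp568, Zfp316, Zfp747, Zfp212, Zfp30 and Zfp1, and groups overlapped for 7 of them, all but Zfp777. Their GC content was 47.1% (Zfp568) to 59.1% (Zfp777).

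Among the other members, DESeq2 also called Zfp62, Zfp800, Zfp644, Zfp597 and Zfp770 higher, again named after their values were seen. Zfp62 had 19.9, 16.6 and 28.6 CPM in dexmedetomidine hearts, and 5.99, 2.26 and 9.86 CPM in vehicle hearts (log2 fold change 1.84, SE 0.46, and 1.17 after the correction). Zfp644 had 19.1, 21.4 and 30.1 CPM in dexmedetomidine hearts, and 10.9, 4.51 and 13.7 CPM in vehicle hearts (log2 fold change 1.27, SE 0.37, and 0.53 after the correction). Zfp800, Zfp597 and Zfp770 were at 1.51, 1.04 and 0.84. Groups did not overlap for these 5 genes, and after the correction they did for Zfp597 and Zfp770.

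The 8 members with the smallest p among those with lower values held 1 KRAB member, Zfp777. Zfp703 (ENSMUSG00000085795), a transcriptional repressor of the NET family, had 19.8, 21.9 and 16.7 CPM in dexmedetomidine hearts, and 39.1, 40.1 and 31.9 CPM in vehicle hearts. Its unadjusted p was the smallest of all members (log2 fold change -0.93, SE 0.15, edgeR adjusted p = 0.101), and the groups stayed apart after the correction at -0.55. Zfp516 (ENSMUSG00000058881), a factor of the brown fat programme, had 18.6, 16.6 and 17.9 CPM in dexmedetomidine hearts, and 22.2, 29.9 and 21.6 CPM in vehicle hearts (log2 fold change -0.47, SE 0.16). Its vehicle mean leaned on replicate 2, and without that library the value was -0.31. Zfp622 (ENSMUSG00000052253), which acts in the maturation of the large ribosomal subunit, had 20.1, 21.1 and 17.6 CPM against 22.8, 27.5 and 29 CPM in vehicle hearts (log2 fold change -0.43, SE 0.14). It was the lower member with the lowest GC content, 43.6%, and the correction moved it further from 0, to -0.80.

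The other 5 lower members were Zfp428 (log2 fold change -0.77), Zfp524 (-0.63), Zfp219 (-0.37), Zfp771 (-0.43) and Zfp777 (-0.34). Zfp777 had 11.3, 11.1 and 10.8 CPM in dexmedetomidine hearts, and 13.6, 14 and 14.4 CPM in vehicle hearts, a narrow spread in each group, but it was at -0.0099 after the correction. Groups did not overlap for any of the 8. After the correction they still did not for Zfp703, Zfp428, Zfp516 and Zfp622, while they overlapped for the other 4, and Zfp219 and Zfp771 changed sign to 0.021 and 0.15. Members with a log2 fold change above 1 numbered 28, of which 18 were KRAB members. At an unlike cutoff 6 lay below -0.5, and the lowest of all was Zfp703 at -0.93. The same counts were not made over all genes tested.

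**Figure D4:**
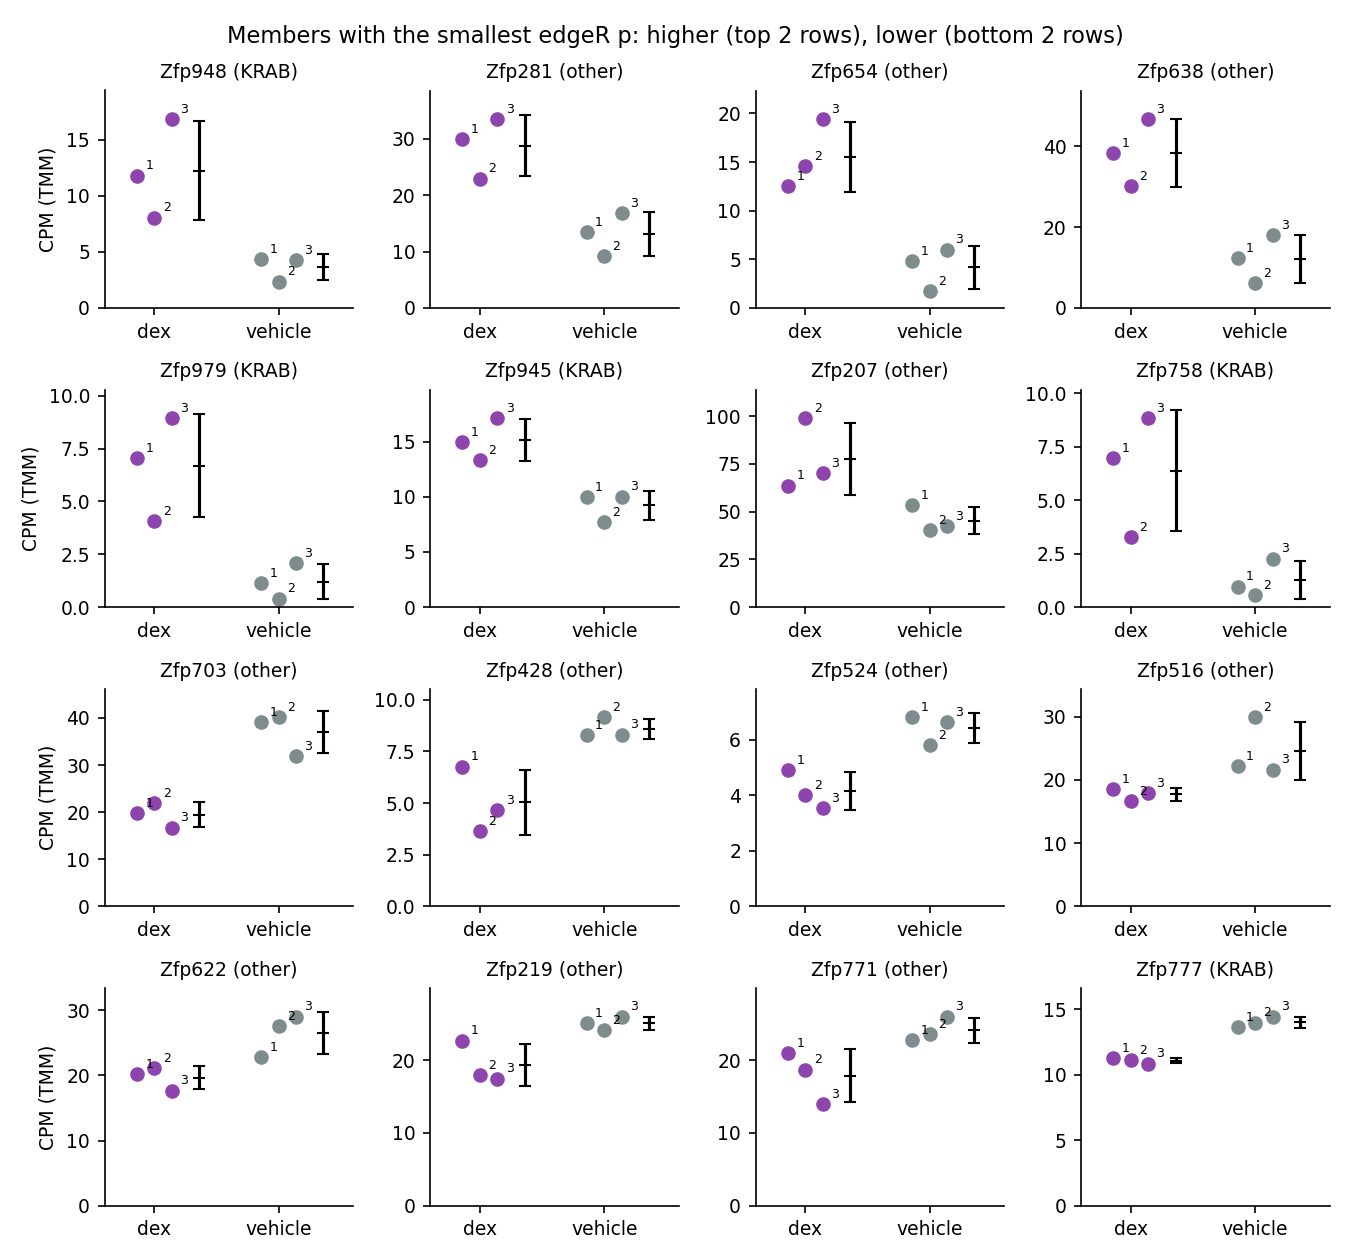
CPM with TMM-scaled library sizes (y axis, from 0) of the 8 members with the smallest p among those higher (top rows) and lower (bottom rows) in dexmedetomidine hearts; points are libraries, numbered by replicate, with dexmedetomidine (dex) left of vehicle, and bars give the mean and SD (n = 3). Groups do not overlap in any panel, and vehicle replicate 2 is the lowest point in each of the top 8.

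A list fixed for naming held 32 members with a described function, of which 2 were KRAB members. It does not cover every member with a described function, so its values apply to the list alone. These 32 split evenly, 16 above 0 and 16 below, with a median log2 fold change of -0.0024. At an unadjusted edgeR p under 0.05 there were 8 with higher and 4 with lower values, where 12.5% and 9.03% of all genes were called. None passed the adjusted threshold in edgeR, as no gene did. DESeq2 called some of the 32 at its adjusted threshold, among them Zfp148 and Zfp260 as higher and Zfp703 as lower. Zfp260 (ENSMUSG00000049421), a cardiac transcription factor downstream of alpha1-adrenergic signalling in rat cardiomyocytes, had 23.2, 24.6 and 25.6 CPM in dexmedetomidine hearts, and 12.9, 6.81 and 17.1 CPM in vehicle hearts. The dexmedetomidine libraries lay close together and the vehicle libraries spread widely below them. Its log2 fold change was 0.99 (SE 0.29, edgeR adjusted p = 0.118), 0.70 without vehicle replicate 2, 0.54 after the correction and 0.33 with both. Zfp697, an RNA-binding regulator of muscle regeneration, averaged 31.4 ± 3.81 CPM in dexmedetomidine hearts and 31.7 ± 8.04 CPM in vehicle hearts (SD, n = 3 each), and the groups overlapped. Zfp746, also called PARIS, a repressor of PGC-1alpha, averaged 13.4 ± 2.73 CPM in dexmedetomidine hearts and 16.9 ± 1.16 CPM in vehicle hearts, again with overlap. It matched 11 of the 16 positions of the KRAB pattern, fewer than the 13 required, and was counted with the other members. Zfp106, the most abundant member, had 556, 595 and 551 CPM in dexmedetomidine hearts, and 523, 523 and 551 CPM in vehicle hearts, a log2 fold change of 0.09 (SE 0.11) that was -0.14 after the correction.

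Among regulators of transcription, Zfp148 (ZBP-89), a GC-box-binding factor, had 33.5, 39.5 and 47.6 CPM in dexmedetomidine hearts, and 20.8, 13 and 28.6 CPM in vehicle hearts (log2 fold change 0.95, SE 0.27), and was at 0.20 with overlapping groups after the correction. Zfp292 had 17, 10.7 and 29.2 CPM against 3.06, 2.12 and 9.10 CPM in vehicle hearts, with a log2 fold change of 1.99 and a wide SE of 0.56. The fat cell regulators Zfp423, Zfp467 and Zfp521 were at -0.03, -0.29 and -0.30. Zfp335, Zfp384, Zfp395, Zfp407, Zfp462, Zfp511, Zfp608, Zfp609, Zfp217 and Zfp318 ranged between -0.55 (Zfp511) and 0.25 (Zfp462), each with an edgeR p above 0.05. Of the KRAB members in this set, Zfp809, which silences retroviruses in mouse embryonic cells, averaged 7.44 ± 1.90 CPM in dexmedetomidine hearts and 4.19 ± 2.30 CPM in vehicle hearts. Zfp568, a repressor of an Igf2 transcript in the mouse placenta, had 23.8, 28.8 and 26.3 CPM in dexmedetomidine hearts, and 36.5, 51.8 and 18.2 CPM in vehicle hearts. Its vehicle libraries spanned the dexmedetomidine range on both sides, and its log2 fold change of -0.43 was -0.057 without vehicle replicate 2.

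Ubiquitin ligases and RNA-binding members were the remaining group. Zfp91, a ubiquitin ligase of NF-kappaB signalling, had 120, 156 and 144 CPM in dexmedetomidine hearts, and 114, 106 and 116 CPM in vehicle hearts, without overlap (log2 fold change 0.32, SE 0.13, edgeR adjusted p = 0.190). Zfp598, a ubiquitin ligase that senses collided ribosomes, averaged 21.1 ± 3.48 CPM in dexmedetomidine hearts and 26.9 ± 2.69 CPM in vehicle hearts, with overlap. Zfp326, a splicing protein of the DBIRD complex, was at 0.55 (SE 0.18) without overlap, and after the correction it was at -0.22 with groups that did not overlap in the other direction. Zfp346, a binder of double-stranded RNA, was at -0.06. Of the other highly expressed members, Zfp651 averaged 96.2 ± 8.59 CPM in dexmedetomidine hearts and 121 ± 16.6 CPM in vehicle hearts (log2 fold change -0.33, without overlap, but -0.13 with overlap after the correction), Zfp706 106 ± 9.72 and 105 ± 3.8 CPM (0.01) and Zfp46 68.3 ± 7.28 and 61.4 ± 5.29 CPM (0.15). The genes Zfp667, Zfp503, Zfp580 and Zfp593, also fixed for naming, were not members.

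**Figure D5:**
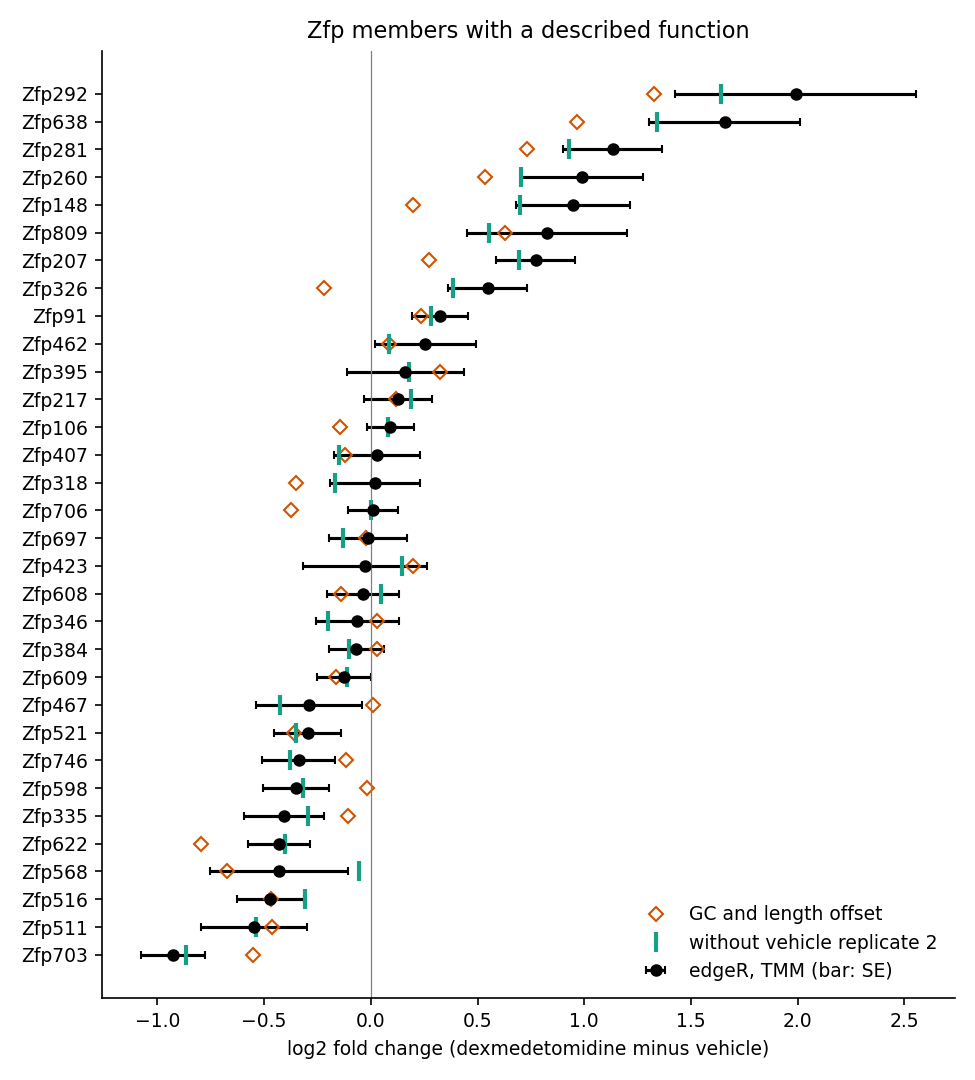
Log2 fold change, dexmedetomidine minus vehicle (x axis), of the 32 listed members with a described function (rows, highest at the top). Filled circles are edgeR values with their SE as bars. Open diamonds are values with an offset for GC content and length, and vertical ticks values without vehicle replicate 2. Circles run from 1.99 (Zfp292) to -0.93 (Zfp703), and diamonds of the upper members lie nearer 0, with Zfp326 at -0.22.

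In the order of RefSeq genes along the chromosomes, 42 members, 23 of them KRAB members, lay next to another member in 19 runs. The longest run held 4 KRAB members, Zfp560, Zfp26, Zfp426 and Zfp266, with log2 fold changes between 0.40 and 0.89. After the GC and length correction they lay between -0.18 (Zfp560) and 0.12 (Zfp26), and groups overlapped for all 4. Zfp52 was at 1.78 beside Zfp948, Zfp946 at 1.99 beside Zfp758, and Zfp971 and Zfp931 were at 1.36 and 1.03. After the correction Zfp52, Zfp946, Zfp971 and Zfp931 were at 1.20, 1.14, 0.82 and -0.17. Zfp758, Zfp946 and Zfp931 reached the threshold through dexmedetomidine libraries alone. Neighbours in a run can be similar enough in sequence to share reads. Reads aligned at several places were not counted, so values of close paralogs are uncertain. Over all runs the median was 0.11, against 0.19 for members outside a run.

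RefSeq promoter windows (GRCm38.p6) were found for 137 members. In 110 of them the first 20 bases after the start lay near the 5 prime end of a transcript of the gene. The 250 bases before the start were searched on both strands for 4 motifs, none of which contains another. A GC box (GGGCGG) was found in 47.3% of 55 KRAB windows, 58.5% of 82 other members' windows and 58.1% of 10767 windows of tested genes. A CCAAT box (CCAAT) was found in 49.1%, 40.2% and 35.8% of them, an E-box (CACGTG) in 10.9%, 4.88% and 8.36%, and a TATA box (TATAAA) in 3.64%, 7.32% and 6.59%. Windows are printed for the member with the smallest p that had one, for the next of these, a GC-box-binding protein, and for the lower member with the smallest p that had one, with GC and CCAAT boxes in capitals.
Zfp948, chr17:21566728-21566977 (+): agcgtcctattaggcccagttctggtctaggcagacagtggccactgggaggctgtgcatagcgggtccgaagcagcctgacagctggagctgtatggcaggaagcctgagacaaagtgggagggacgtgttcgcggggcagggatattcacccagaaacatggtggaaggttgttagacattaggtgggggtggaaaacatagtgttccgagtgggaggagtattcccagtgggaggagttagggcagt
Zfp281, chr1:136624651-136624900 (+): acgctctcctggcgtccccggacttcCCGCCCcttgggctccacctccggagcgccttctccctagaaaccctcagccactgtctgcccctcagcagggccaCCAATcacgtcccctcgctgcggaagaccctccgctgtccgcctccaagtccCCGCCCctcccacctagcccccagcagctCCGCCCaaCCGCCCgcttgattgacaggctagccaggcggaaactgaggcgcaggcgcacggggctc
Zfp428, chr7:24506837-24507086 (+): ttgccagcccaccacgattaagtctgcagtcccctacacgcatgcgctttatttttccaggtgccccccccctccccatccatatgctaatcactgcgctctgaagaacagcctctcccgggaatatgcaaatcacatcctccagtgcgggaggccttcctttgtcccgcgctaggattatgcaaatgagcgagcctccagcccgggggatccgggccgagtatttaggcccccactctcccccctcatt
The Zfp281 window had a GC content of 69.6% with 4 GC boxes and 1 CCAAT box. The windows of Zfp948 (56.4%) and Zfp428 (58.0%) held no match of the 4 motifs. That of Zfp622, the next lower member with a window, is not printed and held 1 GC box at a GC content of 60%.

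The machinery that KRAB proteins recruit was measured in 29 genes, chosen as a list, of which 18 lay above 0 and 11 below, with a median log2 fold change of 0.23, and of 0.018 after the correction. At an unadjusted edgeR p under 0.05 there were 11 with higher and 2 with lower values (12.5% and 9.03% of all genes), and none passed the adjusted threshold. Trim28, the co-repressor itself, averaged 53.6 ± 7.65 CPM in dexmedetomidine hearts and 60.8 ± 3.85 CPM in vehicle hearts, and Setdb1, its methyltransferase partner, 12.7 ± 1.10 and 11.5 ± 5.0 CPM, both with overlap. The genes of this list with the smallest p were the deacetylase Hdac2 (log2 fold change 0.60) and the chromatin remodellers Atrx (1.74) and Smarcad1 (1.03), and after the correction they were at 0.12, 0.97 and 0.48. Of 184 Zfp genes below the level for members, 136 passed the filter, 114 of these above 0, but a gene of low counts may pass through the group where it is high, so these counts support nothing. Of 116 genes of other C2H2 families, 97 were tested, with 56 above 0, 41 below and a median of 0.09, and of 31 Zfp genes with a letter after the number, 24 were tested, with 18 above 0, 6 below and a median of 0.69, with the same limit on genes of low counts.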

How the data were processed

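Per the file header, the authors deposited a single matrix of whole-number counts with the length of each gene. Trim Galore, HTSeq and mm9 are named in the submitters' processing notes. No source used here gives the aligner, annotation or strand setting, so reads of overlapping genes cannot be told apart. The matrix has 5 summary lines (among them multiply aligned reads, 28.1% to 39.5% of reads), which were used neither for depth nor for testing, and 32897 identifiers had a symbol.

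Counts were tested with edgeR 4.0.16 (filterByExpr, TMM, robust quasi-likelihood F test, Benjamini-Hochberg) in R 4.3.3 on all 6 libraries, and 14738 genes passed the filter; DESeq2 1.42.0 and limma 3.58.1 (voom with quality weights) were alternatives, with other scalings, filters, member levels, left-out libraries, a replicate block, and per-library offsets for GC content and length (splines, 5 degrees of freedom). The fits were tested on simulated data. Intervals between libraries are SD or SE. GC content, domains and finger sequences came from GENCODE M21, in place of the RefSeq proteins first planned, and promoters and gene order from RefSeq; all coordinates are those of GRCm38, not of the build used for counting. Named were the 8 members with the smallest p in each direction, the 6 most abundant, the 3 on each side of the level, and listed members with a described function. Members and lists were chosen with earlier results of these data known.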

Additional observations from a re-analysis of the deposited data

How the results depend on the processing

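The KRAB median lay between 0.00041 and 0.81 under the alternatives run. Its size depended on the GC trend, vehicle replicate 2 and the members that reached 3 CPM in dexmedetomidine hearts alone. The cause was not tested. A choice of members at 3 CPM or more in each group was made after seeing the data. Over these, the offset gave a KRAB median of 0.029 and 19 higher members below a p of 0.05. Leaving out vehicle replicate 2 as well gave a KRAB median of 0.00041 over these. Over all KRAB members the median was 0.29 with the GC and length offset. It was 0.059 with the offset and without vehicle replicate 2, where that of all members was -0.0066. The median of other members was -0.094 on raw library sizes. Below a p of 0.05 there were 26 higher members with the offset, and 18 higher and 6 lower with the offset and without vehicle replicate 2, while limma-voom gave 17 lower. Leaving out 1 library gave 4 (dexmedetomidine replicate 3) to 18 (dexmedetomidine replicate 1) lower members, where 4.06% and 11.3% of all genes were lower. Groups did not overlap upward for 37 members on raw library sizes and 29 with the trend removed, and the ratio of summed CPM was 1.22 without mitochondrially encoded genes in the total.

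No gene passed an adjusted p of 0.05 in edgeR (1841 higher and 1331 lower at an unadjusted p under 0.05), but 406 did without the filter, 1247 in DESeq2, 2107 in limma-voom, and 0 to 1251 with 1 library left out, of which 10, 31, 51 and 0 to 39 were members, the highest counts without vehicle replicate 3. The same counts follow for the co-repressor list, the Zfp genes below the level, those with a letter suffix and the other C2H2 families. They were 1, 9, 2 and 2 without the filter, 5, 23, 5 and 9 in DESeq2, and 10, 34, 7 and 23 in limma-voom. With 1 library left out they ran from 0 up to 7, 29, 5 and 15. In the main edgeR fit 29, 136, 24 and 97 genes of these lists were tested. Of all genes, 1.88% were called without the filter. DESeq2 called 6.53% higher and 2.9% lower, limma-voom 8.98% and 5.31%, and edgeR without vehicle replicate 3 6.13% and 2.19%. The co-repressor median was 0.077 on raw library sizes, 0.018 with the offset, -0.0099 with the offset and without vehicle replicate 2, and 0.097 to 0.35 with 1 library left out. With the offset and without vehicle replicate 2 the medians of the Zfp genes below the level and those with a letter suffix were 0.28 and 0.20, values that genes passing the filter through 1 group alone may set. At a mean CPM of at least 5 no Zfp gene below the level was left.

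Replicate numbers did not pair the samples by the labels, and same-numbered libraries correlated at -0.055, 0.036 and 0.15 in their deviations. A fit with the replicate block called 636 genes (4.32% of those tested) and 29 members, and 5, 14, 4 and 4 genes of the lists above. With the offset and the block it called 149 genes (1.04% of those tested) and 13 members. Of the co-repressor, letter suffix and other C2H2 lists it called 2, 2 and 1 genes, with a co-repressor median of 0.017.

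Of the log2 fold changes of 47 named members, 654 values under alternatives kept direction and side of the threshold, 66 passed it only under the alternative, and 71 changed sign. With the offset these were Zfp945 at -0.40, Zfp219 at 0.021, Zfp771 at 0.15, Zfp106 at -0.14, Zfp706 at -0.38, Zfp111 at -0.33, Zfp318 at -0.35, Zfp326 at -0.22, Zfp346 at 0.029, Zfp384 at 0.029, Zfp407 at -0.12, Zfp423 at 0.20 and Zfp467 at 0.0079. With the offset and the replicate block they were Zfp945 at -0.39, Zfp219 at 0.023, Zfp771 at 0.14, Zfp106 at -0.14, Zfp706 at -0.37, Zfp111 at -0.33, Zfp318 at -0.34, Zfp326 at -0.22, Zfp346 at 0.060, Zfp384 at 0.029, Zfp407 at -0.12, Zfp423 at 0.17 and Zfp467 at 0.018. With the offset and without vehicle replicate 2 they were Zfp945 at -0.30, Zfp771 at 0.075, Zfp106 at -0.072, Zfp706 at -0.28, Zfp111 at -0.45, Zfp318 at -0.43, Zfp326 at -0.22, Zfp407 at -0.25, Zfp423 at 0.36 and Zfp462 at -0.025. On raw library sizes they were Zfp106 at -0.045, Zfp706 at -0.13, Zfp111 at -0.049, Zfp217 at -0.0012, Zfp318 at -0.14 and Zfp407 at -0.12. In limma-voom they were Zfp111 at -0.041, Zfp346 at 0.025, Zfp407 at -0.081, Zfp423 at 0.059 and Zfp608 at 0.019. Zfp706 was at -0.0070 without mitochondrially encoded genes, and Zfp697 at 0.0050 with a mean CPM of at least 5 and at 0.0077 with the replicate block. With 1 library left out, signs differed within -0.061 to 0.070 for Zfp706, -0.12 to 0.23 for Zfp111, -0.13 to 0.21 for Zfp697, -0.0087 to 0.20 for Zfp217, -0.17 to 0.24 for Zfp318, -0.20 to 0.18 for Zfp346, -0.12 to 0.00037 for Zfp384, -0.11 to 0.38 for Zfp395, -0.15 to 0.16 for Zfp407, -0.16 to 0.18 for Zfp423 and -0.12 to 0.069 for Zfp608. The offset without vehicle replicate 2, the fit without mitochondrially encoded genes and the KRAB pattern from 9 of 16 positions were chosen after seeing the data.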
